A study of Mus musculus with 8 samples.

Results

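Metallothioneins and the transporters that move zinc across cell membranes were examined in pancreatic islets as a set of 10 mouse genes, Mt1, Mt2, Mt3, Mtf1, Slc30a1, Slc30a5, Slc30a7, Slc39a8, Slc39a10 and Slc39a14. The genes were taken by symbol from the 18193 genes that have an array probe set annotated to them alone, and where a gene had several, the brightest on average across the 8 arrays was read. Together they have 22 such probe sets, and the other 12 served as a check. Mt2, Mt3 and Slc30a5 have only 1 probe set each, so this check was not possible for them. Gene expression had been measured on Affymetrix arrays in islets of male C57Bl/6 mice with Irs2 intact (wild type) or knocked out (Irs2-/-), the gene of insulin receptor substrate 2, an adaptor of the insulin and IGF-1 receptors. Wild-type and Irs2-/- mice drank plain distilled water (untreated) or distilled water with sodium tungstate (treated) for 21 days, from 10 to 13 weeks of age. The design text and the sample labels disagree on the dose, 2 mg/ml against 2 mg/dl, which leaves it unsettled. There were 4 groups of 2 independent samples. Nothing in the labels says if islets of several mice were pooled, so p-values measure only the spread between these samples, and their number limits the precision.

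Metallothioneins are small proteins rich in cysteine that bind zinc and copper and are induced when free zinc or other heavy metals rise in a cell. Mtf1 encodes the zinc-sensing transcription factor that drives this response through short metal response elements in target promoters, and the plasma membrane exporter gene Slc30a1 is a classic target beside the metallothioneins. Transporters of the SLC30 family (ZnT) move zinc out of the cytosol and those of the SLC39 family (ZIP) move it in, and beta cells are among the cells richest in zinc, which they pack with insulin into secretory granules.

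The labels and the tissue were checked first. Irs2 read between 7.61 and 7.91 (log2) on the 4 wild-type arrays and between 4.54 and 4.89 on the 4 Irs2-/- arrays. The mean of 8 beta cell markers lay between 11.47 and 12.69 on every array, and none of them read below 5.27 on all arrays, the level under which genes were left out of the tests. Digestive enzyme genes of acinar cells were present as well, with a mean between 8.96 (untreated wild-type replicate 1) and 12.29 over 16 markers. Of 13369 genes tested, 2245 differed between the genotypes on plain water and 0 differed with tungstate in wild-type islets (limma adjusted p under 0.05).

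The promoters of 4 of these genes are printed because their members moved in different ways below: Mt1 and Mt2 together, Mt3 the other way, and Slc30a1 as the other classic target of the zinc sensor. Each runs from 250 bases before to 50 bases after the RefSeq start (GRCm38.p6), 5′ to 3′ on the gene's strand, and capitals mark matches to the core of the metal response element, searched as TGCACNC or TGCGCNC on both strands. Matches on the minus strand appear as their reverse complement.
Mt1, chr8:94178839-94179138, plus strand: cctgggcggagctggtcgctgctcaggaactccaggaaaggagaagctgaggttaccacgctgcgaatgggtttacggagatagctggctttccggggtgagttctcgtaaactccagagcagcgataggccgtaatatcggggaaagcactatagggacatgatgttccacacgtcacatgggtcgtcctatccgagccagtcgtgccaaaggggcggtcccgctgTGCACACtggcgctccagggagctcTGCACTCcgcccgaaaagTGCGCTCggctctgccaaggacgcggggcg
Mt2, chr8:94172368-94172667, plus strand: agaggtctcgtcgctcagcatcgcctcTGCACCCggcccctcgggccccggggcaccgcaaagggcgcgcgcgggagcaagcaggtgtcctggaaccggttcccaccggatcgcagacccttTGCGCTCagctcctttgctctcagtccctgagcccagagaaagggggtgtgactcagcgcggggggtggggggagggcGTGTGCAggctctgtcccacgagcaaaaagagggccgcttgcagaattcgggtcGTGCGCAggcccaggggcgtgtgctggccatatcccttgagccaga
Mt3, chr8:94152357-94152656, plus strand: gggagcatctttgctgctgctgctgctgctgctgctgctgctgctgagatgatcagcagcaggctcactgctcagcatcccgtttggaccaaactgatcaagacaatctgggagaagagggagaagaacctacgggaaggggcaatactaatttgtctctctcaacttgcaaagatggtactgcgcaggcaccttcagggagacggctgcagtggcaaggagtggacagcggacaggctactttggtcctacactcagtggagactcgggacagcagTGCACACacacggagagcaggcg
Slc30a1, chr1:191906531-191906830, plus strand: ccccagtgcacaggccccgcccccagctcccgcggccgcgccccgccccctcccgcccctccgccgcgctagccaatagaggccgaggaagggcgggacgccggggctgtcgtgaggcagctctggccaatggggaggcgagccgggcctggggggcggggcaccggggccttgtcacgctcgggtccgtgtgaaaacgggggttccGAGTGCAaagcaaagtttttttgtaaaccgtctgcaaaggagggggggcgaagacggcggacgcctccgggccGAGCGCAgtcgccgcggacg
The Mt1 window holds 3 matches and the Mt2 window 4, against 1 for Mt3 and 2 for Slc30a1, and no matches overlap each other in these windows. Of 32851 promoter windows of the same length, 25.7% hold at least 1 match, 7.11% at least 2, 1.97% at least 3 and 0.517% at least 4. Windows were found for 9 of the 10 genes, 11 windows in all. Slc30a5 has 1 match, 1 of the 2 windows of Slc39a8 has 1, and the windows of Mtf1, Slc30a7 and Slc39a10 have 0. The antioxidant response element, searched as TGACNNNGC on both strands, has 1 match in each of the windows of Mt2, Slc30a1 and Slc30a5, 1 in the other Slc39a8 window and 0 in the remaining windows, where 12.4% of all windows hold at least 1. These are matches of letters in these windows and no record of binding.

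The main comparison for these genes was the one that asks what loss of Irs2 does in mice on plain water. Mt1, a metallothionein gene active in most tissues, read 12.96 and 12.43 in untreated wild-type islets and 11.36 and 11.44 in untreated Irs2-/- islets. Both Irs2-/- arrays lay below all 4 wild-type arrays. The level was 2.45-fold lower (95% interval 1.76 to 3.39), a log2 difference of -1.29 ± 0.20 (SE, 2 arrays per group, limma adjusted p = 0.00819). Mt2, its close neighbour on chromosome 8 with the same zinc-buffering role, read 11.92 and 11.25 in wild-type and 10.09 and 10.16 in Irs2-/- islets. It was 2.74-fold lower (1.84 to 4.09, log2 difference -1.46 ± 0.25, limma adjusted p = 0.0104), again without overlap. Mt3, known as the brain metallothionein, went the other way. It read 7.13 and 7.36 in wild-type and 7.91 and 8.17 in Irs2-/- islets, 1.73-fold higher (log2 difference 0.79 ± 0.15, limma adjusted p = 0.013), and the untreated Irs2-/- arrays were the 2 highest of all 8.

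These 3 were the members that passed the test on plain water, 1 higher and 2 lower of 9 tested, where 16.8% of all 13369 genes passed (8.27% higher, 8.52% lower). Arrays did not overlap between the groups for 6 of the 9, 1 higher and 5 lower, against 60.6% of all genes (28.9% higher, 31.7% lower), so lack of overlap alone is common here. The median difference over the 9 was -0.15, against -0.01 over all genes tested. Slc39a8 could not be counted, since its mean of 4.26 lay below the minimum of 5.27.

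**Figure D1:**
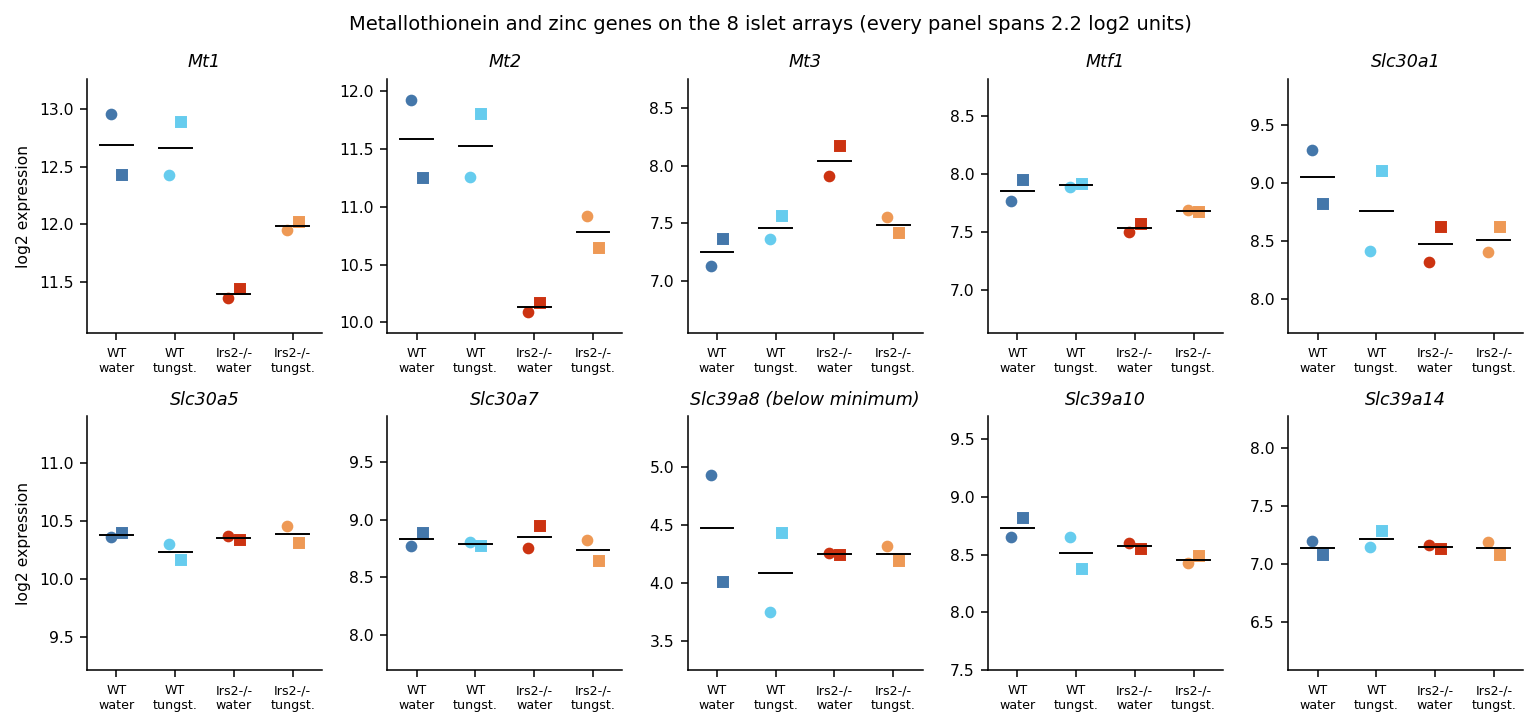
Log2 expression (vertical axis) of each of the 10 genes on the 8 arrays, by group (horizontal axis), with circles for replicate 1, squares for replicate 2 and bars for group means; WT is wild type and tungst. is sodium tungstate. Mt1 and Mt2 are lowest in Irs2-/- islets on plain water (means 11.40 and 10.13), where Mt3 is highest (8.04), while Slc30a5, Slc30a7 and Slc39a14 span at most 0.30 over all arrays.

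Sodium tungstate did not measurably raise the metallothioneins in wild-type islets. Mt1 read 12.96 and 12.43 without and 12.43 and 12.88 with the salt. The arrays of the treated group lay between those of the untreated group, and the difference was -0.03 ± 0.20 (0.977-fold, 95% interval 0.705 to 1.35, limma adjusted p = 1). Mt2 read 11.92 and 11.25 against 11.26 and 11.80, a difference of -0.05 ± 0.25 (0.963-fold, interval 0.645 to 1.44, limma adjusted p = 1). A rise of Mt1 or Mt2 beyond these upper bounds lies outside the intervals, and a smaller one remains possible. The bounds are no limit of detection with 2 arrays per group. No gene passed in this comparison, not even Hspa1b with a difference of -1.93 ± 0.53. Mt3 differed by 0.21 ± 0.15 with overlapping arrays (1.16-fold, interval 0.917 to 1.46). The sensor gene Mtf1 differed by 0.05 ± 0.11 and the exporter gene Slc30a1 by -0.29 ± 0.25. Of the 9 members 0 passed limma's test and 0 had an unadjusted p under 0.05, where 0% of all genes passed and 2.72% (364 genes) had such a p. The 2 treated arrays were separate from the 2 untreated ones for 1 member, Slc30a5, at 10.30 and 10.16 against 10.36 and 10.39 (-0.15 ± 0.11), against 37.1% of all genes (15.2% higher, 21.9% lower). Over the alternatives the estimate ran from -0.30 to 0.23 for Mt1 and from -0.39 to 0.28 for Mt2, so its sign is not settled, and it passed in 0 of them.

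In Irs2-/- islets the same 3 genes sat closer to their wild-type levels in the treated mice, though none passed the test. The untreated Irs2-/- arrays that set these 3 apart on plain water are also the baseline here. Some shift back can follow from that choice alone, so these values are no independent support for an effect of tungstate. Mt1 read 11.36 and 11.44 without and 11.96 and 12.03 with tungstate, so that both treated arrays were above both untreated ones (0.59 ± 0.20, 95% interval 1.09-fold to 2.09-fold, limma adjusted p = 0.276). Mt2 read 10.09 and 10.16 against 10.92 and 10.64, also without overlap (0.65 ± 0.25, 1.57-fold, interval 1.05 to 2.35, limma adjusted p = 0.318). Mt3 read 7.91 and 8.17 without and 7.56 and 7.42 with the salt (-0.55 ± 0.15, 0.682-fold, interval 0.540 to 0.862, limma adjusted p = 0.171), and the treated arrays were both lower. Of the 9 members 0 passed and 3 had an unadjusted p under 0.05, namely these 3, against 0.494% of all genes that passed (0.0224% higher, 0.471% lower) and 13.3% with such a p. Arrays did not overlap for 5 of the 9, 3 higher and 2 lower, against 40.5% of all genes (17.6% higher, 22.9% lower).

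Whether tungstate acted differently in the genotypes was tested directly. The difference between the tungstate effects, Irs2-/- minus wild type, was 0.62 ± 0.29 for Mt1, 0.71 ± 0.35 for Mt2 and -0.76 ± 0.21 for Mt3. With limma adjusted p of 0.789, 0.814 and 0.615, 0 of the 9 members passed, and 1 (Mt3) had an unadjusted p under 0.05. Of all genes 0.0224% passed and 6.45% had such a p. A difference of the effects is therefore not shown for any of the 9.

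Between the genotypes under tungstate, Mt1 and Mt2 were still lower on both Irs2-/- arrays than on any wild-type array. Mt1 differed by -0.67 ± 0.20 (limma adjusted p = 0.161) and Mt2 by -0.75 ± 0.25 (adjusted p = 0.192), and Mt3 by 0.03 ± 0.15. No member passed limma's test (1.02% of all genes did, 0.636% higher and 0.389% lower), and 2 had an unadjusted p under 0.05, as did 16.1% of all genes. Arrays did not overlap for 4 of the 9, against 48.1% of all genes (22.4% higher, 25.7% lower), namely Mt1, Mt2 and Mtf1, which were lower, and Slc30a5, which was higher. Treated Irs2-/- islets set against untreated wild-type islets gave -0.70 ± 0.20 for Mt1, -0.80 ± 0.25 for Mt2 and 0.24 ± 0.15 for Mt3. Here too 0 of 9 members passed (0.352% of all genes did, 0.194% higher and 0.157% lower) and 2 had an unadjusted p under 0.05, as did 18.6% of all genes. Arrays did not overlap for 6 of the 9, 1 higher (Mt3) and 5 lower, against 19.8% of all genes that were higher and 30.2% that were lower. These comparisons share arrays with each other, so their values are not independent.

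**Figure D2:**
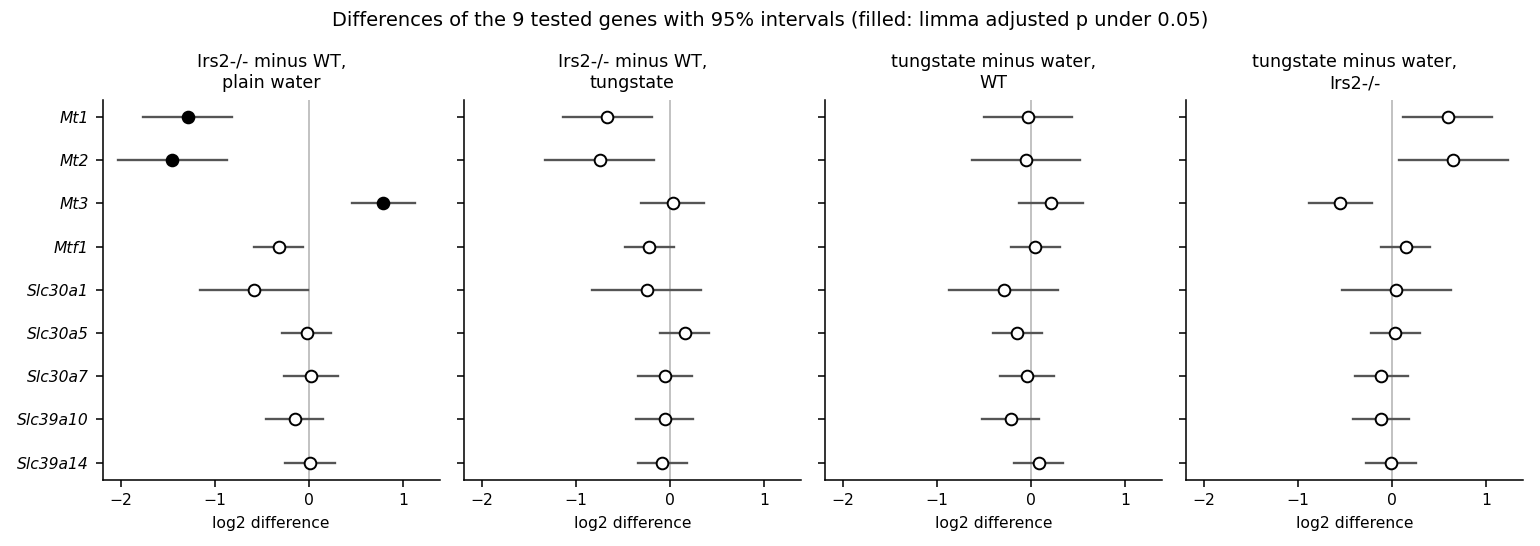
Log2 difference (horizontal axis) of the 9 tested genes in 4 comparisons, with 95% intervals from limma; filled circles passed at an adjusted p under 0.05 and open ones did not. Mt1, Mt2 and Mt3 pass on plain water, and for tungstate in wild-type islets the estimates lie between -0.29 and 0.21 with 0 filled.

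Mtf1, the sensor that switches on metallothionein genes, read 7.76 and 7.95 in untreated wild-type and 7.50 and 7.57 in untreated Irs2-/- islets. All 4 Irs2-/- arrays were below all 4 wild-type arrays (highest Irs2-/- 7.69, lowest wild-type 7.76). The difference on plain water of -0.32 ± 0.11 did not pass (limma adjusted p = 0.0889). Its 5 probe sets disagree. A second probe set had nearly the same mean (7.68, against 7.74 for the one used) and read 7.98 and 7.97 in untreated wild-type, 7.42 and 7.36 in untreated Irs2-/-, 7.89 and 7.93 in treated wild-type and 7.45 and 7.40 in treated Irs2-/- islets. There the difference on plain water was -0.59 ± 0.11 (limma over all single-gene probe sets, adjusted p = 0.0146), while tungstate differed by 0.04 ± 0.11 in Irs2-/- islets. The other 3 gave 0.02 ± 0.18, 0.02 ± 0.14 and -0.25 ± 0.14. The transcripts that each probe set reads were not examined, and a lower level of Mtf1 without Irs2 depends on the probe set.

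Slc30a1 encodes the exporter that removes zinc from the cell. It read 9.29 and 8.82 in untreated wild-type, 8.42 and 9.11 in treated wild-type, 8.32 and 8.62 in untreated Irs2-/- and 8.40 and 8.62 in treated Irs2-/- islets. The treated wild-type group overlapped both Irs2-/- groups. On plain water the difference was -0.58 ± 0.25 (limma adjusted p = 0.147), and its second probe set gave -0.42 ± 0.15 (adjusted p = 0.0994). By the probe sets used, the 2 wild-type arrays high in Slc30a1 were untreated replicate 1 and treated replicate 2. They were also the 2 high in Mt1 (12.96 and 12.88) and Mt2 (11.92 and 11.80). The other 2 read 12.43 and 12.43 for Mt1, and 11.25 and 11.26 for Mt2. The second probe sets did not repeat this match. That of Mt1 read 8.19 and 8.57 in untreated and 8.00 and 8.72 in treated wild-type islets. That of Slc30a1 read 6.94 and 6.80 in untreated and 6.57 and 6.77 in treated wild-type islets.

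Slc30a5 and Slc30a7 encode transporters that bring zinc into the Golgi and the early secretory pathway. Slc30a5 lay between 10.16 and 10.46 on all 8 arrays, and its difference on plain water was -0.02 ± 0.11 (95% interval -0.28 to 0.24). Slc30a7 lay between 8.64 and 8.95, with a difference of 0.02 ± 0.12 (interval -0.27 to 0.30). The second probe set of Slc30a7 did not follow the first. It read 8.33 and 8.51 in untreated and 8.23 and 8.28 in treated wild-type islets, against 8.98 and 8.97 in untreated and 8.72 and 8.42 in treated Irs2-/- islets. Its difference on plain water was 0.56 ± 0.14 (limma adjusted p = 0.0359), and over the 8 arrays the 2 probe sets had r = 0.39. The level of Slc30a7 is therefore uncertain.

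**Figure D3:**
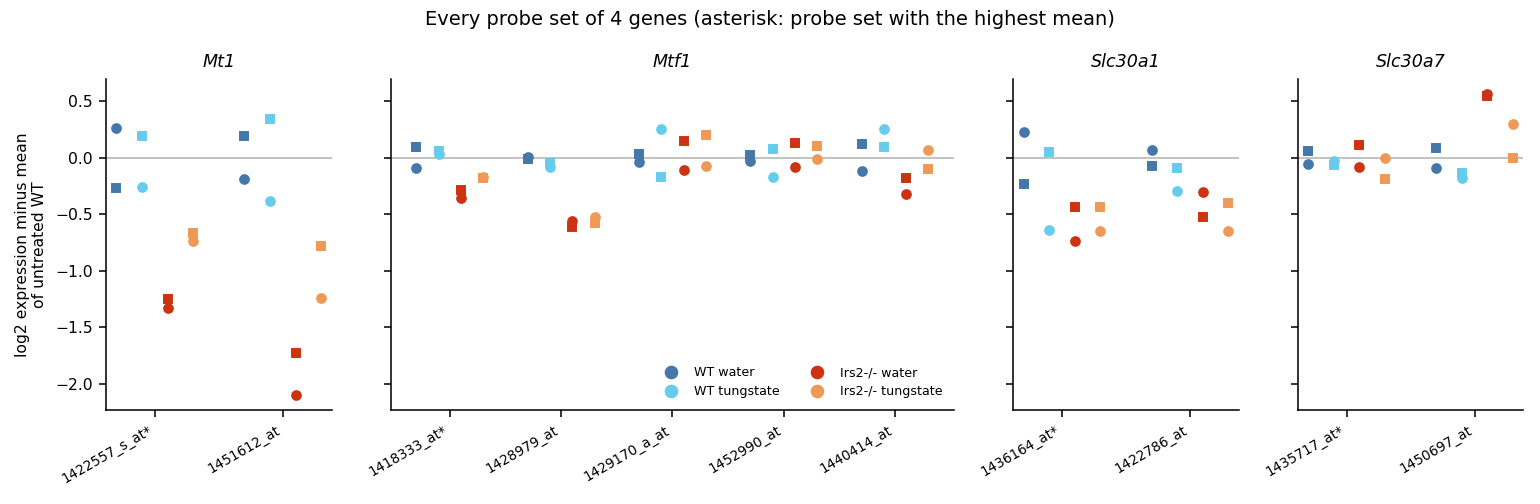
Log2 expression minus the mean of untreated wild-type islets (vertical axis) for each probe set of Mt1, Mtf1, Slc30a1 and Slc30a7 on the 8 arrays, by group colour, with circles for replicate 1 and squares for replicate 2. Both Mt1 probe sets are lowest in Irs2-/- islets on plain water (-1.29 and -1.91 on average), while the 5 Mtf1 probe sets range from -0.59 to 0.02 there and the 2 of Slc30a7 give 0.02 and 0.56.

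Of the 3 importer genes among the members, Slc39a10 and Slc39a14 were tested and neither passed in any comparison. Slc39a10, an importer at the plasma membrane, lay between 8.38 and 8.82 on all arrays, and Slc39a14, which also carries iron and manganese and is known to be induced in inflammation, between 7.07 and 7.28. Their differences on plain water were -0.15 ± 0.13 (95% interval -0.45 to 0.15) and 0.01 ± 0.11 (interval -0.26 to 0.27), and with tungstate in wild-type islets -0.22 ± 0.13 and 0.08 ± 0.11. With tungstate in wild-type islets, other probe sets of Slc39a14 above the minimum gave -0.05 ± 0.14 and -0.08 ± 0.13. The second probe set of Slc39a10 gave -0.12 ± 0.23 there. The range of Slc39a14 over the 8 arrays, 0.21, compares with a median range of 0.52 over all tested genes. Slc39a8, another importer, read between 3.75 and 4.94, below the minimum on all 8 arrays. In a fit without that minimum its difference was -0.22 ± 0.30 on plain water and -0.38 ± 0.30 with tungstate in wild-type islets, with overlapping arrays in both.

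Mt1 and Mt2 moved almost in parallel. Over the 8 arrays Pearson's r between them was 0.99, the highest that Mt1 had with any of the other tested genes. The probe set used for Mt1 carries the suffix (_s_at) that marks probes matching more than 1 transcript, and whether it also reads Mt2 was not tested. The second Mt1 probe set read 8.19 and 8.57 in untreated wild-type, 8.00 and 8.72 in treated wild-type, 6.28 and 6.65 in untreated Irs2-/- and 7.14 and 7.59 in treated Irs2-/- islets. It gave the same direction on plain water (-1.91 ± 0.27, limma adjusted p = 0.00743), and -0.02 ± 0.27 with tungstate in wild-type and 0.90 ± 0.27 in Irs2-/- islets (limma adjusted p = 0.999 and 0.258). Its r was 0.93 with the first Mt1 probe set and 0.89 with Mt2. After Mt2, the genes most like Mt1 over the 8 arrays were Rhpn2 (r = 0.99), Rpap2 (0.98), Hibadh (0.98) and the neutral amino acid transporter gene Slc1a4 (0.98). Mt3 had r = -0.82 with Mt1, and Slc30a1 0.79. The genes most like Slc30a1 were Tmem170b (0.97), Smg8 (0.95), Parp11 (0.95), Ttll11 (0.95) and Lratd2 (0.94). All of these r values share the same 8 arrays and their group differences, and are given as a description.

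Of 19 other listed genes, zinc transporters and Mt4, 13 could be tested and 6 had a mean below the minimum (Slc30a2, Slc30a10, Slc39a2, Slc39a4, Slc39a12 and Mt4). On plain water 1 rose and 2 fell without Irs2, against 16.8% of all genes that passed in either direction. Slc39a11, of the importer family, read 7.86 and 8.20 in untreated wild-type and 9.83 and 9.79 in untreated Irs2-/- islets (3.43-fold higher, limma adjusted p = 0.00269), and 9.31 and 8.73 in treated Irs2-/- islets. Slc30a8, which loads zinc into insulin granules, read 12.72 and 12.55 in untreated wild-type, 11.05 and 11.23 in untreated Irs2-/- and 11.56 and 12.29 in treated Irs2-/- islets (2.82-fold lower on plain water, limma adjusted p = 0.00651). Slc30a9 fell by 0.39 ± 0.11 (limma adjusted p = 0.0427). With tungstate 0 of the 13 passed in either genotype, where 0% of all genes passed in wild-type and 0.494% in Irs2-/- islets. In wild-type islets the 13 differed by -0.18 to 0.31, with 0 at an unadjusted p under 0.05, against 2.72% of all genes. In Irs2-/- islets Slc39a11 differed by -0.79 ± 0.20 and Slc30a8 by 0.79 ± 0.22 (limma adjusted p = 0.16 and 0.19). Both stand out on plain water through the same untreated Irs2-/- arrays that are the baseline here. Some shift back can follow from that alone, so these values are no independent support for an effect of tungstate.

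**Figure D4:**
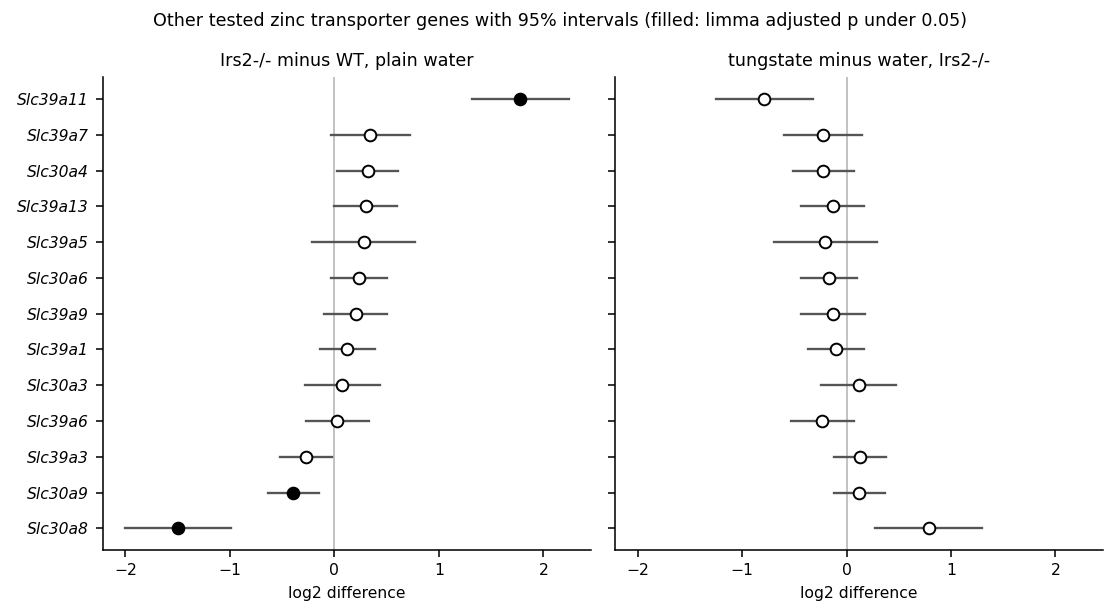
Log2 difference with 95% interval (horizontal axis) of the 13 other tested zinc transporter genes, on plain water between the genotypes (left) and for tungstate in Irs2-/- islets (right); filled circles passed at a limma adjusted p under 0.05. Slc39a11 (1.78, 3.43-fold higher) and Slc30a8 (2.82-fold lower) lie at the ends on the left, with differences of -0.79 and 0.79 on the right, where 0 are filled. Both panels use the same untreated Irs2-/- arrays, so they are not independent.

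Markers of cell types moved with the same groups, and in whole islets fewer cells of a type and less RNA per cell cannot be told apart. Of 8 beta cell markers 5 fell without Irs2 on plain water, where 16.8% of all genes passed (8.27% higher, 8.52% lower). The 5 include Slc30a8, described above, while the hormone genes Ins2 (-0.03 ± 0.10) and Iapp (0.04 ± 0.10) did not differ measurably. The mean of all 8 was 11.47 and 11.70 in untreated and 11.74 and 12.34 in treated Irs2-/- islets. It lay between 12.60 and 12.69 in wild-type islets with or without tungstate. Macrophage markers rose, 12 of 12, with means of 8.83 and 9.03 on the untreated Irs2-/- arrays and between 7.37 and 7.80 on the 6 others. With tungstate in Irs2-/- islets 7 of these 12 fell, against 0.494% of all genes that passed. The untreated Irs2-/- arrays enter both comparisons, so the rise and the fall of these markers are not independent. Of 10 lymphocyte markers 3 rose on plain water, and all 10 differences were positive (median 2.21). Their mean was 7.34 and 8.18 on the untreated Irs2-/- arrays, against 5.39 to 6.73 elsewhere. Of 10 stromal markers 1 rose on plain water and all 10 differences were positive (median 0.75). Their mean was 8.44 and 7.37 in untreated and 6.67 and 6.99 in treated wild-type islets, 8.86 and 8.53 in untreated and 8.62 and 8.07 in treated Irs2-/- islets. With tungstate in wild-type islets the stromal median difference was -0.999. There 6 of 10 had an unadjusted p under 0.05, against 2.72% of all genes, and 0 passed limma's test, as did 0% of all genes. Of 8 endothelial markers 1 rose on plain water (median 0.38), and of 5 duct markers 2 rose (median 0.45). Of 7 markers of other endocrine cells 2 fell, Sst and Hhex (median over the 7 -0.33). Gcg differed by -0.13 ± 0.12, and the 1 positive difference was that of Ghrl (1.28 ± 0.38, limma adjusted p = 0.0573). The part of these cells in the differences of Mt1, Mt2 and Mt3 was not tested. Of 16 acinar markers 1 rose on plain water, though all 16 differences were positive (median 1.49). The acinar mean was 8.96 and 11.91 in untreated wild-type and 11.45 and 12.29 in untreated Irs2-/- islets. With it as a covariate the differences on plain water were -1.09 ± 0.21 for Mt1, -1.15 ± 0.23 for Mt2 and 0.68 ± 0.17 for Mt3 (limma adjusted p = 0.0224, 0.0243 and 0.0442). The acinar mean itself was higher in untreated Irs2-/- islets (11.87 against 10.44), so this fit cannot fully separate it from genotype. No other marker list was fitted as a covariate.

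**Figure D5:**
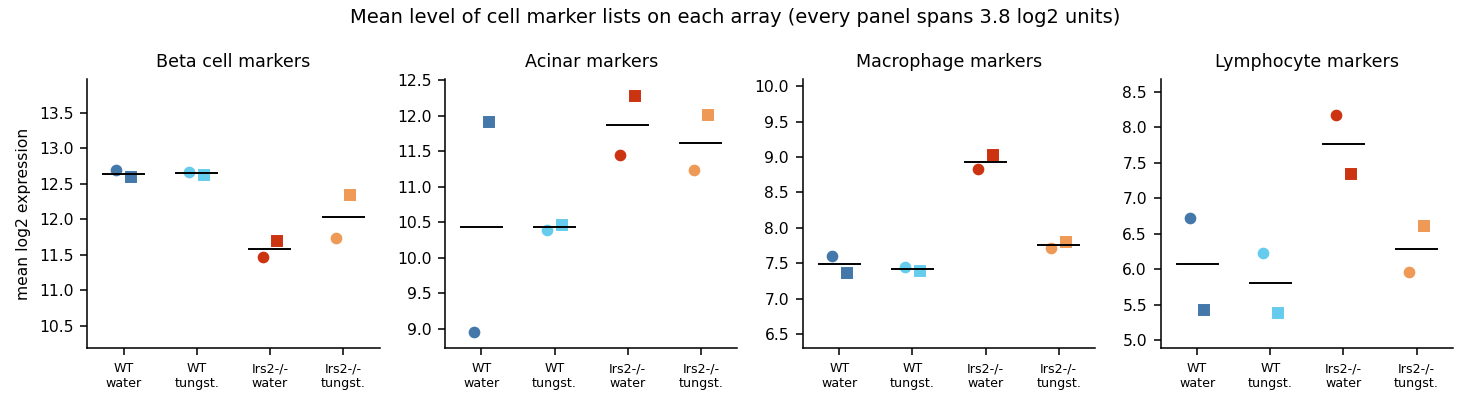
Mean log2 expression of the beta cell, acinar, macrophage and lymphocyte marker lists (vertical axes) on the 8 arrays by group (horizontal axis), with circles for replicate 1, squares for replicate 2 and bars for group means. Macrophage markers stand highest on the 2 untreated Irs2-/- arrays (8.83 and 9.03), where beta cell markers are lowest (11.47 and 11.70).

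The calls on plain water rest on few arrays. Mt1 passed without any single array, while Mt2 was -1.42 ± 0.32 (limma adjusted p = 0.0522) without untreated Irs2-/- replicate 1 and Mt3 was 0.68 ± 0.18 (adjusted p = 0.0714) without untreated wild-type replicate 1. Untreated wild-type replicate 1 has the lowest acinar level and untreated Irs2-/- replicate 1 the highest lymphocyte level. Leaving out both leaves 1 array in each of these groups, whose spread is then taken from the other groups. The differences were then -0.99 ± 0.25 for Mt1, -1.08 ± 0.29 for Mt2 and 0.80 ± 0.19 for Mt3, those of Mt1 and Mt2 smaller than with all arrays. With 1 array in each of these groups, this fit cannot settle whether the calls hold. The same limit applies to the fits without a single array, where the group concerned keeps 1 array. That Mt1 passed in each of those fits therefore does not settle its call either.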

How the data were processed

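The authors deposited log2 expression per probe set, computed by RMA (affy, R 2.7.0, per the submitters' processing notes). RMA gives all arrays a common distribution and can shrink shifts shared by many genes. Scan batches could not be examined. Leaving aside 64 controls, the platform annotation ties 34945 of 45037 probe sets to a single gene, 932 to several and 9160 to none. Genes with a mean under the 40th percentile (log2 5.27) were left out, 4824 of 18193. A mean per group was fitted to all 8 arrays in limma 3.58.1 (R 4.3.3, package data.table, version 1.17.8) with empirical Bayes moderation (residual df 4, prior df 3.89). In each of 6 contrasts, Benjamini-Hochberg adjustment covered all 13369 genes, and an adjusted p under 0.05 passed. The fit was also run on simulated data with independent noise for each gene and 200 changed genes. Those data held no effects shared by the genes of an array, so the run cannot show how the fit handles such effects. Named are Irs2, the 10 members, up to 4 listed genes per list and contrast, some cell markers, and the 5 genes most like Mt1 and Slc30a1. Members and lists were chosen with earlier results of these data known. Alternatives concerned the filter, moderation, samples, replicate block, scaling, probe sets, an acinar covariate, array weights, the threshold and single arrays. Leaving out replicate 1 of both untreated groups was added after seeing the data.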

Additional observations from a re-analysis of the deposited data

How the results depend on the processing

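At an adjusted p under 0.1, 4 of the 9 tested members passed on plain water (Mtf1 joined), where 3511 of all 13369 genes did. As given above, Mt2 and Mt3 each fell short without 1 of the arrays. Fits that leave 1 array in a group cannot settle whether the calls hold. In the 5 other comparisons 0 members passed under all 99 alternatives. Ranges over the alternatives on plain water were -1.91 to -0.99 for Mt1, -1.79 to -1.08 for Mt2 and 0.66 to 0.92 for Mt3. Of 1131 recomputed member differences 74 changed sign, none of them past the threshold. Same-numbered samples were not treated as pairs. Their deviations from the group means correlated at -0.066 to 0.418 over the 6 pairs of groups, above 0.1 in the 3 pairs among untreated wild type, treated wild type and untreated Irs2-/- (0.22, 0.418 and 0.191), so that something shared by number in these groups is possible and was not tested. With the replicate number as a block 3 members passed on plain water, with Mt1 at -1.29 (limma adjusted p = 0.012), Mt2 at -1.46 (0.015) and Mt3 at 0.79 (0.0121), and no other call changed. The count of all genes past the threshold, 2245 between the genotypes on plain water, ranged from 367 (without replicate 1 of both untreated groups) to 3511 (adjusted p under 0.1). The other counts were 137 (3 to 679) between the genotypes under tungstate, 0 (0 to 9) and 66 (16 to 265) for tungstate in wild-type and Irs2-/- islets, 47 (4 to 585) for treated Irs2-/- against untreated wild-type islets and 3 (0 to 13) for the difference of the effects. The fit with only the arrays compared was not run for the last, which needs all arrays.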

Other observations

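Of 19 tested genes that handle copper and iron, 3 rose and 3 fell without Irs2 on plain water, 31.6% of the list, where 16.8% of all genes passed. The list's median difference was -0.005, against -0.011 over all genes. The copper importer gene Slc31a1 rose by 0.62 ± 0.13 (limma adjusted p = 0.0205) and the copper chaperone gene Atox1 by 0.73 ± 0.14 (adjusted p = 0.013), while the copper pump gene Atp7a fell by 0.75 ± 0.13 (adjusted p = 0.00985). Slc31a1 read 7.32 and 7.27 in untreated wild-type, 7.97 and 7.86 in untreated Irs2-/- and 7.55 and 7.25 in treated Irs2-/- islets. The transferrin receptor gene Tfrc fell by 0.70 ± 0.15 (limma adjusted p = 0.0184). The metalloreductase gene Steap4 rose by 0.88 ± 0.19 on plain water (limma adjusted p = 0.0214) and read 7.43 and 7.01 without and 6.22 and 6.49 with tungstate in wild-type islets (-0.86 ± 0.19, limma adjusted p = 1, unadjusted p = 0.00199). With tungstate 0 of 19 passed in either genotype, where 0% of all genes passed in wild-type and 0.494% in Irs2-/- islets. An unadjusted p under 0.05 was seen for 1 of the 19 in wild-type and 4 in Irs2-/- islets, against 2.72% and 13.3% of all genes.

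Of 13 genes of the response to metals and oxidants 1 rose and 1 fell on plain water, 15.4% of the list and near the 16.8% of all genes, namely the superoxide dismutase gene Sod1 (0.50 ± 0.13, limma adjusted p = 0.0338) and the quinone reductase gene Nqo1 (-0.96 ± 0.26, adjusted p = 0.0422). The heat shock genes Hspa1a and Hspa1b were not higher with tungstate in wild-type islets. Hspa1b read 8.81 and 9.69 without and 6.72 and 7.92 with the salt (-1.93 ± 0.53, limma adjusted p = 1, unadjusted p = 0.00672), and Hspa1a differed by -1.51 ± 0.55. The heme oxygenase gene Hmox1, also induced by many metals, differed by -0.22 ± 0.18. Of 10 glucocorticoid-responsive genes, a class that includes metallothioneins, 1 rose on plain water, the kinase gene Sgk1 (8.37 and 8.23 in wild-type, 9.56 and 9.05 in Irs2-/- islets, limma adjusted p = 0.0494), where 8.27% of all genes rose, and Fkbp5 differed by -0.47 ± 0.34. Of 10 acute phase and STAT3 genes 2 rose, Saa3 (3.45 ± 0.37, limma adjusted p = 0.00255) and Bcl3 (0.74 ± 0.16, adjusted p = 0.0226), against the same 8.27% of all genes.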
